A study of Homo sapiens with 5 samples.

Results

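The genes of the translation initiation factors were examined in MDA-MB-231, a human cell line that stands for triple-negative breast cancer, under low oxygen and after its return. They were chosen by symbol: rows without a hyphen whose symbol starts with EIF1, EIF2, EIF3, EIF4, EIF5 or EIF6, without the EIF2AK kinases and without symbols that end in P and a digit, with at least 5 CPM (reads relative to library size, after TMM scaling) in at least 1 library. This gave 45 genes of 48 symbols, among 26475 rows and 13940 genes kept for comparison. The other symbols, EIF1AY, EIF4E1B and EIF5AL1, stayed below the 5 CPM limit, and the highest of them reached 2.70 CPM. Just inside the limit was EIF4E3, with 14.7 CPM in its highest library and 6.12 CPM in its lowest, so every one of the 45 genes was above 5 CPM in all 5 libraries. Bulk RNA was sequenced from cells that spent 10 days at 1% O2 and then 10 days at 20% O2 (reoxygenated), cells kept for 10 days at 1% O2 (chronic hypoxia), cells kept for 10 days at 20% O2, cells kept for 1 day at 1% O2 (acute hypoxia) and cells kept for 1 day at 20% O2. Each condition had 1 library of the same line, and the reoxygenated cells were 20 days in culture in all, so no 20% O2 library matches them in time.

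Translation initiation brings a ribosome to the start codon of an mRNA. eIF4E binds the mRNA cap, eIF4G bridges it to eIF3 on the small ribosomal subunit, and the helicase eIF4A with eIF4B or eIF4H unwinds the leader. eIF2 delivers the initiator tRNA, eIF1 and eIF1A set the accuracy of scanning, eIF5 triggers GTP hydrolysis by eIF2, eIF2B recharges eIF2, and eIF5B joins the large subunit. In low oxygen, cells are known to restrain these steps mainly through the proteins, by binding of eIF4E to 4E-BP and by phosphorylation of the α subunit of eIF2, neither of which mRNA levels measure.

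Promoter sequences are shown for 4 genes: EIF1AX, the gene of lowest difference in chronic hypoxia, EIF4E3, the gene of highest difference, and EIF4G1 and EIF4E, which like EIF5A2 have a repeated E-box. RefSeq gave a promoter for 38 of the 45 genes, and 250 bases before the annotated start were searched on both strands for ACGTG and GCGTG, the cores of the hypoxia response element, and for CACGTG, the E-box bound by MYC and its relatives. Each CACGTG holds ACGTG on both strands. The windows are chrX:20141839-20142088 on the minus strand for EIF1AX, chr3:184314356-184314605 on the plus strand for EIF4G1, chr4:98929134-98929383 on the minus strand for EIF4E and chr3:71754774-71755023 on the minus strand for EIF4E3 (GRCh38.p14). They are written in the direction of transcription, and capitals mark each match, read as CACGC where GCGTG lies on the other strand.
EIF1AX: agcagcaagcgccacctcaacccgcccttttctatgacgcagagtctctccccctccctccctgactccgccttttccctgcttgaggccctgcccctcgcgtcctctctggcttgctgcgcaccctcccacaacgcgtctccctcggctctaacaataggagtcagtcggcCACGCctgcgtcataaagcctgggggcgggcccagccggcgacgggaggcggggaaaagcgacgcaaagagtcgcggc
EIF4G1: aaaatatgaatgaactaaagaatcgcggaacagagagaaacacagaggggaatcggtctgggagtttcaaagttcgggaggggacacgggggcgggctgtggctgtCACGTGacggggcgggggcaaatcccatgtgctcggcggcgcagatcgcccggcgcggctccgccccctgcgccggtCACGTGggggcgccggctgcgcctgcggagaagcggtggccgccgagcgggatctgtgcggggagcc
EIF4E: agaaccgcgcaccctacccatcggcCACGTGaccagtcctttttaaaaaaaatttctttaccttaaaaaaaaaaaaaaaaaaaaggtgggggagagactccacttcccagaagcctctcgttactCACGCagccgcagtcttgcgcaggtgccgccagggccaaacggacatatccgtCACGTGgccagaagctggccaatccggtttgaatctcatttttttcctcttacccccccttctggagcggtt
EIF4E3: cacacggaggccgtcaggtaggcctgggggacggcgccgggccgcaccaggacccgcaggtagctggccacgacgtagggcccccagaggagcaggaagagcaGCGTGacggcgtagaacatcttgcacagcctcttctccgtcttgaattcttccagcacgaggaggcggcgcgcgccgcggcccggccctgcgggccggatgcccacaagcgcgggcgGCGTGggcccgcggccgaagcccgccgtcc
The E-box stood in 10 of the 38 promoters, or 26.3%, against 8.82% of 9800 promoters of tested genes. ACGTG stood in 36.8% of them against 23.7%, and GCGTG in 50% against 45.7%. Among promoters of genes that were lower by at least 0.5 in chronic hypoxia, 5 of 21 held the E-box (23.8%), against 5 of 17 among the other genes (29.4%). EIF4E, EIF4G1 and EIF5A2 each held 2 E-boxes and EIF1AX and EIF4E3 none. A match describes the letters of the window and is not evidence of binding.

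Deposited counts summed to between 7719807 and 12544941 per library. The hypoxia markers followed the labels: CA9, a carbonic anhydrase, had 3.65 CPM in reoxygenated cells, 68.7 CPM at 1% O2 day 10, 8.48 CPM at 20% O2 day 10, 51.9 CPM at 1% O2 day 1 and 5.10 CPM at 20% O2 day 1. The 5 mesenchymal markers of the line lay between 49.97 and 2198 CPM in every library. All 5 were lower at 1% O2 day 10 than at 20% O2 day 10, by log2 differences from −0.40 (ZEB1) to −1.08 (CD44). Of the 8 luminal markers, the defining ESR1 stayed at or below 0.193 CPM while KRT19 was between 98.0 and 145 CPM. KRT19, EPCAM (up to 29.04 CPM) and ERBB3 (up to 40.8 CPM) were highest at 1% O2 day 10, whereas GATA3 was lowest there (6.23 CPM). PGR, FOXA1 and CDH1 reached at most 0.383, 1.26 and 1.06 CPM. Of the blood markers, PTPRC was between 0.0963 and 2.68 CPM and CD14 between 0.926 and 3.83 CPM, both highest at 1% O2 day 10, and CD3E was at 0 in all 5 libraries. Among fibroblast markers, COL1A1 was highest at 1% O2 day 10 (14.5 CPM), while PDGFRA and DCN stayed at or below 0.278 CPM. The part of these markers in the results was not tested. Because each condition had 1 library, every difference is between single libraries and none was tested. The exact Clopper-Pearson 95% interval of a log2 difference, given in parentheses after it, covers counting error only. In bulk RNA, fewer cells with a transcript and less of it per cell cannot be told apart.

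Initiation factor mRNAs took a smaller share of the library in chronic hypoxia than in any other condition. The 45 genes held 1.45% of counts in reoxygenated cells, 1.18% at 1% O2 day 10, 1.69% at 20% O2 day 10, 1.57% at 1% O2 day 1 and 1.70% at 20% O2 day 1. The 1% O2 library of day 10 was the lowest and the reoxygenated library lay between it and the rest, also without EIF4A1, a gene of high counts that shares reads with a joined row (1.31%, 1.09%, 1.53%, 1.41% and 1.51% in the same order). In the chronic difference, 1% O2 day 10 minus 20% O2 day 10, 39 of the 45 genes were below 0 (86.7%, against 49.1% of all 13940 genes). The other 6 were above 0, among them EIF3C, which was at −0.57 when summed with its near-identical copy EIF3CL. The median log2 difference of the 45 genes was −0.58, against 0.02 over all genes. At a size of at least 0.5, 23 genes were lower (51.1% of the 45, against 23.2% of all genes) and 1 was higher (against 27.4%). At a size of at least 1, 6 were lower (13.3%, against 7.04%) and 1 was higher (2.22%, against 14.4%). Of genes that reached 100 CPM in any library, 10% lay at or below about −1. Among the 11641 genes that reached 5 CPM, as these do, 25.7% were lower and 21.6% higher by at least 0.5.

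Well expressed genes as a whole were also lower in that library. Among genes that reached 100 CPM in any library, 3149 in number, 66.3% were below 0 and the median was −0.285. By at least 0.5, 35.2% of them were lower and 13.4% higher. Of the 37 initiation factor genes in that range, 86.5% were below 0. By at least 0.5, 19 of these were lower (51.4%) and 0 higher. With differences centred on the median of those well expressed genes, 13 of the 45 genes were lower by at least 0.5, against 12.5% of all genes. The median of the 45 genes was then −0.30. Of the well expressed genes themselves, 19% lay at or below −0.782 before centring, which is close to that cut-off after it. When library totals replaced TMM factors, the median of all genes moved up by 0.125 and 19 of the 45 genes were lower by at least 0.5, against 18% of all genes. Of all genes past a size of 1, 67.2% were higher with TMM factors and 77.7% with library totals.

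**Figure D1:**
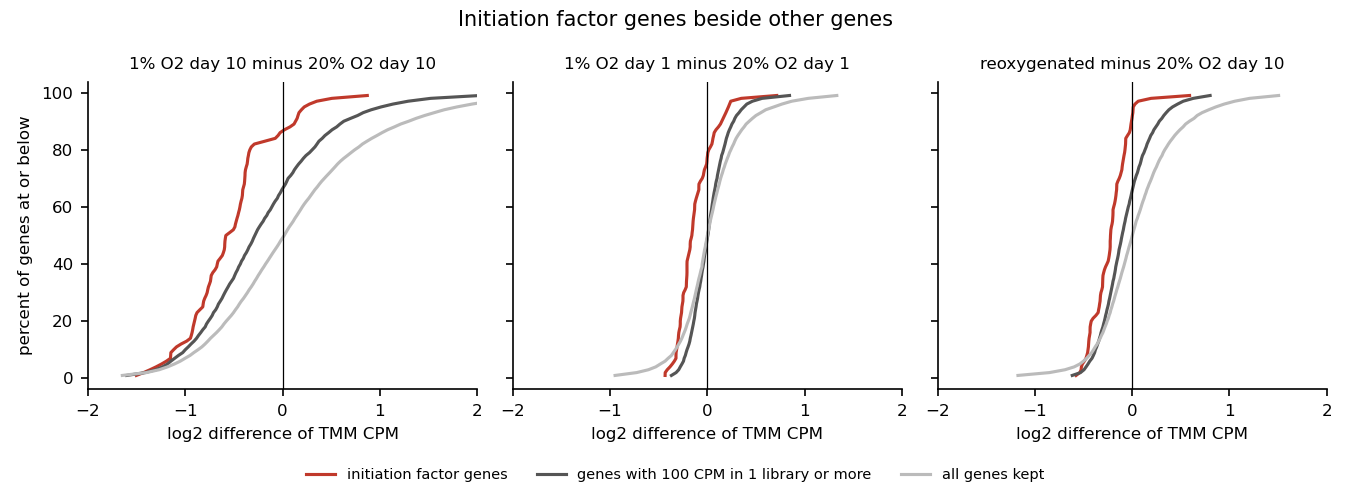
Cumulative percent of genes (vertical axis) at or below a log2 difference of TMM CPM (horizontal axis) for the 45 initiation factor genes, for genes with at least 100 CPM in 1 library or more, and for all genes kept, in 3 comparisons. In chronic hypoxia the initiation factor curve lies left of both others, with medians of −0.58, −0.285 and 0.02.

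The genes of the first steps, start-codon scanning and delivery of the initiator tRNA, diverged within their own complexes. EIF1AX, which encodes eIF1A (chromosome X, 20124525 to 20141838), had 141 CPM in reoxygenated cells, 67.6 CPM at 1% O2 day 10, 202 CPM at 20% O2 day 10, 212 CPM at 1% O2 day 1 and 211 CPM at 20% O2 day 1. The chronic library was lowest, the reoxygenated one came next, and the other libraries were close to one another. The chronic log2 difference was −1.58 (−1.70 to −1.46), the lowest of the 45 genes, and the acute one was 0.01 (−0.08 to 0.09). EIF1, which encodes the scanning partner eIF1, had 509, 711, 603, 557 and 591 CPM in the same order of libraries, with the chronic library highest and the reoxygenated one lowest. Its chronic difference was 0.24 (0.19 to 0.28). Within a library, there were 0.277 EIF1AX counts per EIF1 count in reoxygenated cells, 0.0951 at 1% O2 day 10, 0.335 at 20% O2 day 10, 0.380 at 1% O2 day 1 and 0.356 at 20% O2 day 1. This ratio does not depend on the scaling between libraries, and its chronic log2 difference was −1.82 (−1.95 to −1.69). EIF1B, a near relative of EIF1, had 26.9, 30.1, 31.5, 28.7 and 34.2 CPM in the same order and differed by −0.06 (−0.28 to 0.15), and EIF1AD by −0.38 (−0.55 to −0.22).

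**Figure D2:**
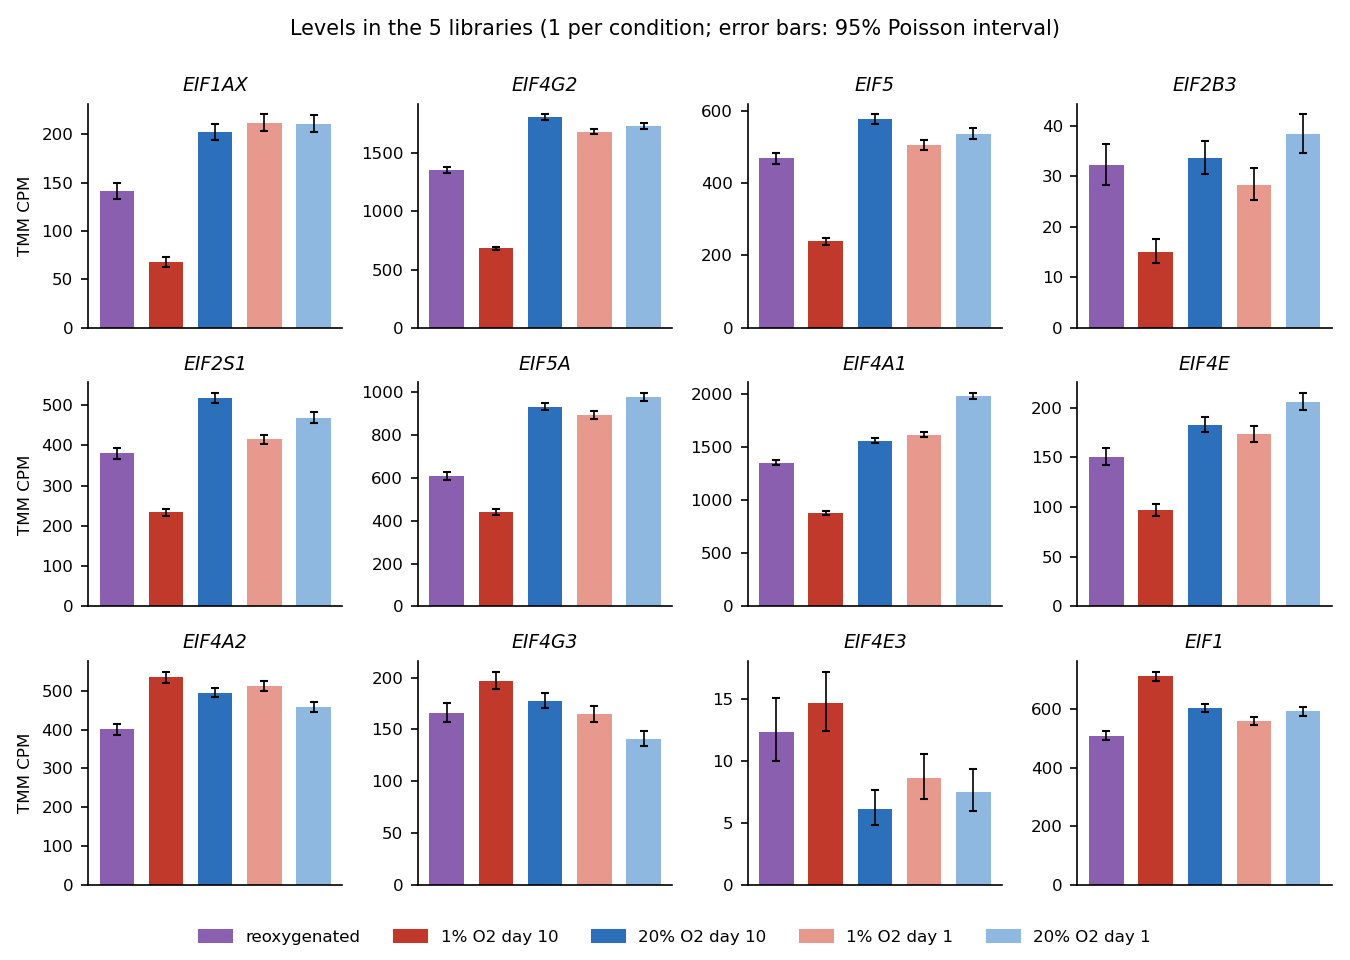
TMM CPM (vertical axis, linear from 0) of 12 initiation factor genes in the 5 libraries, with 95% Poisson intervals that cover counting error only. Bars of EIF1AX, EIF4G2, EIF5, EIF2B3, EIF2S1, EIF5A, EIF4A1 and EIF4E are lowest at 1% O2 day 10, whereas those of EIF4A2, EIF4G3, EIF4E3 and EIF1 are highest there.

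The α subunit of eIF2, the target of the stress kinases, was further from its 20% O2 level in chronic hypoxia than its partner subunits. EIF2S1 (chromosome 14, 67360328 to 67386516) had 379.7 CPM in reoxygenated cells, 233 CPM at 1% O2 day 10, 517 CPM at 20% O2 day 10, 414 CPM at 1% O2 day 1 and 468 CPM at 20% O2 day 1. The chronic library was the lowest by a wide margin, at a log2 difference of −1.15 (−1.22 to −1.08). EIF2S2 and EIF2S3, the β and γ subunits, differed by −0.44 and −0.39. Of the genes for eIF2B, the exchange factor that recharges eIF2 with GTP, all 5 were below 0 (against 49.1% of all genes). The median of the eIF2B genes was −0.60. They ranged widely: EIF2B3, the γ subunit (chromosome 1, 44850522 to 44986595), had 32.2 CPM in reoxygenated cells, 15.05 CPM at 1% O2 day 10, 33.7 CPM at 20% O2 day 10, 28.3 CPM at 1% O2 day 1 and 38.3 CPM at 20% O2 day 1. Its chronic level was under that of every other library, with a log2 difference of −1.15 (−1.44 to −0.89). At the other end, EIF2B2, the β subunit, differed by −0.02 (−0.13 to 0.10). EIF2B1 (α) differed by −0.95, EIF2B4 (δ) by −0.60 and EIF2B5, the catalytic ε subunit, by −0.43. EIF2D, which can deliver tRNA without eIF2, had 40.2, 31.0, 46.8, 44.5 and 55.6 CPM from reoxygenated cells to 20% O2 day 1 in the order above, and differed by −0.59 (−0.80 to −0.40). EIF2A, a separate protein despite its name, differed by −0.36.

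The eIF3 complex, the scaffold on the small ribosomal subunit, had 14 genes with a chronic median of −0.47. Of these, 13 were below 0 (against 49.1% of all genes and 66.3% of genes with at least 100 CPM). By at least 0.5, 6 were lower (against 23.2% and 35.2%): EIF3J (−0.93), EIF3A (−0.81), EIF3CL (−0.78), EIF3B (−0.76), EIF3M (−0.74) and EIF3I (−0.67). The scaffold subunits EIF3A and EIF3B and the loosely bound EIF3J were thus further from 0 than EIF3H (−0.31), EIF3D, which can bind the cap itself (−0.34), and EIF3F (−0.36). EIF3K (−0.48), EIF3E (−0.46), EIF3G and EIF3L (both −0.41) lay between. EIF3C and EIF3CL are near-identical copies on chromosome 16, and 98.0% of sampled 50-base words of EIF3CL were also in EIF3C, so their separate values are uncertain. EIF3C had 92.4 CPM in reoxygenated cells, 115 CPM at 1% O2 day 10, 87.0 CPM at 20% O2 day 10, 143 CPM at 1% O2 day 1 and 67.5 CPM at 20% O2 day 1, whereas EIF3CL had 452, 359.6, 617, 494 and 669 CPM. At both times EIF3C was higher and EIF3CL lower at 1% O2 than at 20% O2. Summed, they had 544 CPM in reoxygenated cells, 475 CPM at 1% O2 day 10, 704 CPM at 20% O2 day 10, 637 CPM at 1% O2 day 1 and 736 CPM at 20% O2 day 1. The sum differed by −0.57 (−0.62 to −0.52) in chronic hypoxia and by −0.21 (−0.26 to −0.16) in acute hypoxia.

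**Figure D3:**
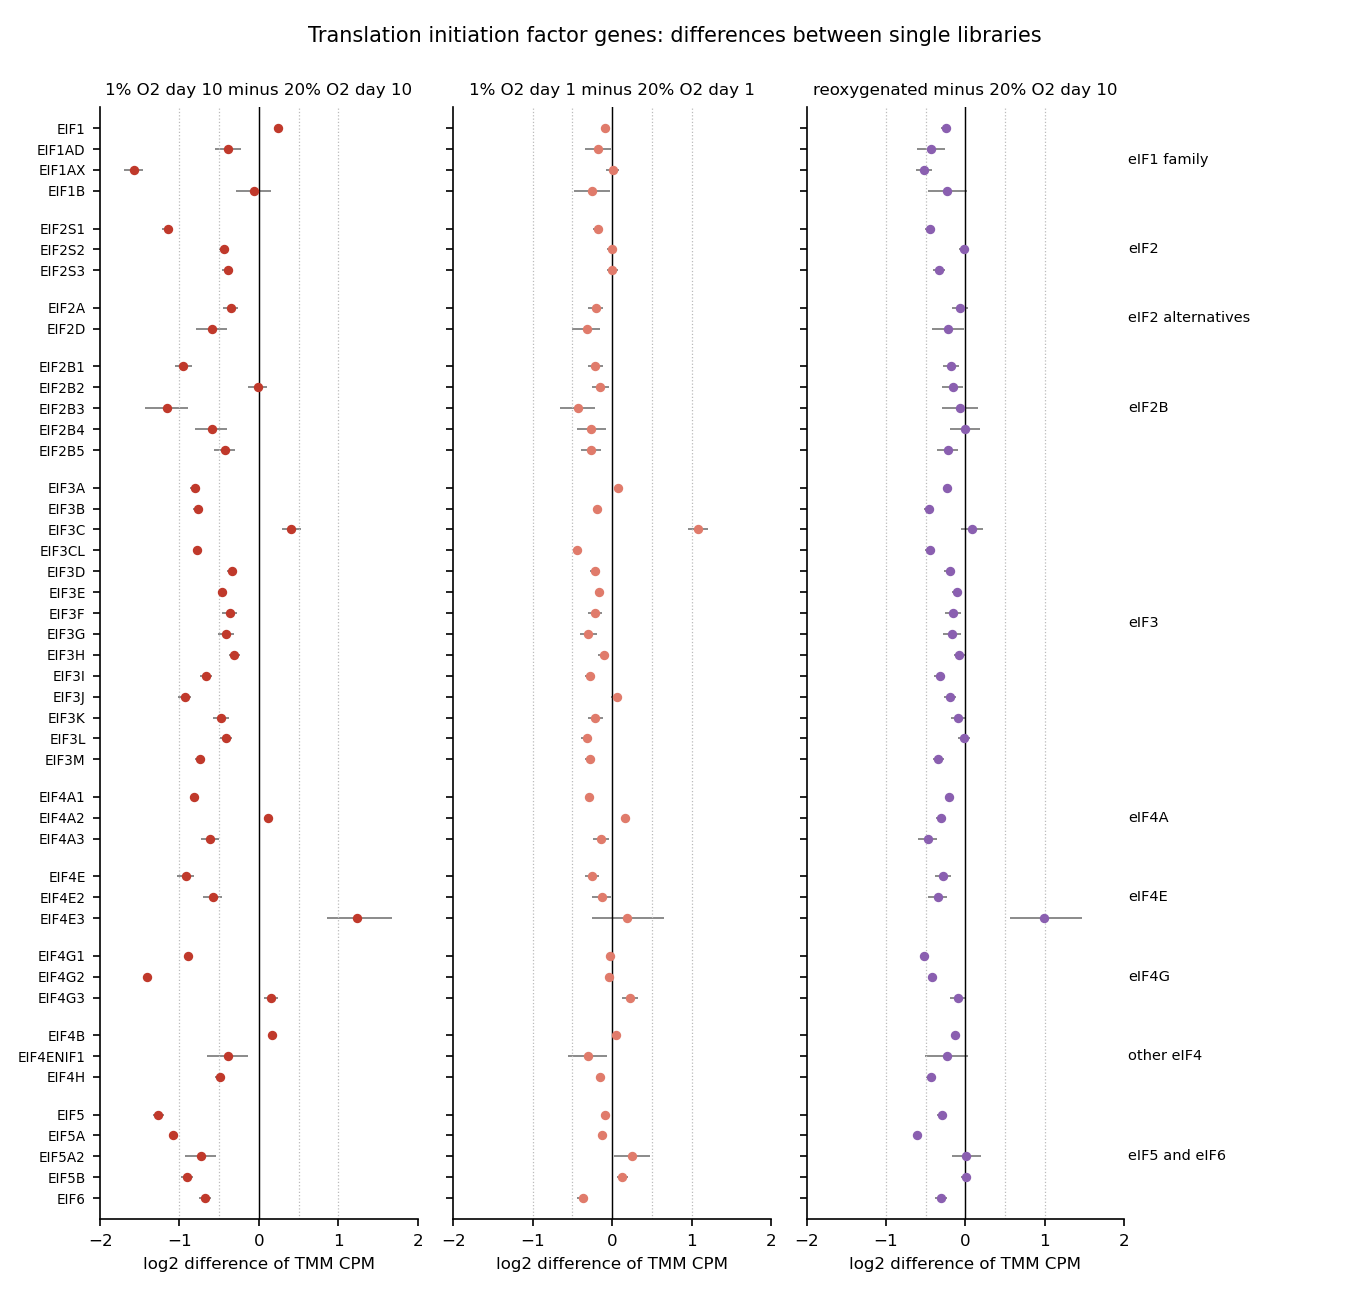
Log2 difference of TMM CPM (horizontal axis) of each of the 45 genes, grouped by complex, with counting intervals, in chronic hypoxia, acute hypoxia and reoxygenated minus 20% O2 day 10. Dotted lines mark sizes of 0.5 and 1. In chronic hypoxia 39 genes lie below 0 and EIF4E3 stands out above 1, and in acute hypoxia EIF3C, which shares its reads with EIF3CL, is the gene past 0.5.

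In the cap-binding complex, related genes did not differ alike. EIF4A1, the main eIF4A helicase gene, had 1352 CPM in reoxygenated cells, 881 CPM at 1% O2 day 10, 1556 CPM at 20% O2 day 10, 1613 CPM at 1% O2 day 1 and 1978 CPM at 20% O2 day 1. Its relative EIF4A2 (chromosome 3, 186783577 to 186789897) had 401, 535, 495, 512 and 458 CPM in the same order. EIF4A1 was lowest and EIF4A2 highest in the chronic library, with log2 differences of −0.82 (−0.86 to −0.78) and 0.11 (0.06 to 0.17). From day 1 to day 10 at 20% O2, EIF4A2 differed by 0.11 as well. The genes have transcripts of like length, and per kilobase EIF4A1 had 501.7 and EIF4A2 278.9 CPM at 1% O2 day 10, against 885.9 and 258.0 at 20% O2 day 10. EIF4A2 counts per EIF4A1 count were 0.297 in reoxygenated cells, 0.608 at 1% O2 day 10, 0.318 at 20% O2 day 10, 0.318 at 1% O2 day 1 and 0.231 at 20% O2 day 1. The ratio was highest in the chronic library, with a log2 difference of 0.93 (0.87 to 1.00), and its acute difference was 0.46 (0.39 to 0.52). At 20% O2 alone, it differed by 0.46 as well, day 10 minus day 1. EIF4A1 shares 49.9% of sampled words with the joined row SENP3-EIF4A1, and both rows summed differed by −0.82 as well. EIF4A3, the helicase of the exon junction complex, had 112, 101.2, 155, 141 and 155 CPM in the same order, and differed by −0.62.

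Among the cap-binding proteins, the low-level EIF4E3 went the other way from EIF4E. EIF4E (chromosome 4, 98879276 to 98929133) had 151 CPM in reoxygenated cells, 96.6 CPM at 1% O2 day 10, 183 CPM at 20% O2 day 10, 173 CPM at 1% O2 day 1 and 206 CPM at 20% O2 day 1. EIF4E3 (chromosome 3, 71659363 to 71754773), which encodes an atypical cap-binding relative, had 12.3, 14.7, 6.12, 8.62 and 7.51 CPM in the same order. EIF4E was lowest in the chronic library, while EIF4E3 was higher there and in reoxygenated cells than in the other libraries. The chronic log2 differences were −0.92 (−1.03 to −0.81) for EIF4E and 1.24 (0.85 to 1.68) for EIF4E3, the highest of the 45 genes. EIF4E3 counts per EIF4E count were 0.0818 in reoxygenated cells, 0.152 at 1% O2 day 10, 0.0335 at 20% O2 day 10, 0.0498 at 1% O2 day 1 and 0.0365 at 20% O2 day 1. EIF4E2, the cap-binding protein known for translation with HIF-2α and RBM4 in hypoxic human cells, had 108, 91.8, 138, 108 and 119 CPM and differed by −0.58 (−0.70 to −0.47). Its ratio to EIF4E was 0.716 in reoxygenated cells, 0.9504 at 1% O2 day 10, 0.753 at 20% O2 day 10, 0.626 at 1% O2 day 1 and 0.576 at 20% O2 day 1. The chronic difference of that ratio was 0.34 (0.18 to 0.49).

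The scaffold genes did not differ alike either. EIF4G2 (chromosome 11, 10797046 to 10808926), which encodes DAP5, a relative of eIF4G without an eIF4E site, had 1355 CPM in reoxygenated cells, 682 CPM at 1% O2 day 10, 1809 CPM at 20% O2 day 10, 1684 CPM at 1% O2 day 1 and 1736 CPM at 20% O2 day 1. EIF4G1, the main scaffold gene, had 783, 609.6, 1128, 1001 and 1024 CPM, and EIF4G3, its close relative, had 166, 197, 178, 164 and 141 CPM. EIF4G2 and EIF4G1 were lowest in the chronic library and next lowest in the reoxygenated one, and EIF4G3 was highest in the chronic library. The chronic log2 differences were −1.41 (−1.45 to −1.37) for EIF4G2, −0.89 (−0.93 to −0.84) for EIF4G1 and 0.15 (0.06 to 0.24) for EIF4G3. From day 1 to day 10 at 20% O2, EIF4G3 differed by 0.33 (0.24 to 0.43). EIF4G3 counts per EIF4G1 count were 0.212 in reoxygenated cells, 0.323 at 1% O2 day 10, 0.158 at 20% O2 day 10, 0.164 at 1% O2 day 1 and 0.138 at 20% O2 day 1. The chronic difference of that ratio was 1.04 (0.94 to 1.13). EIF4G2 counts per EIF4G1 count were 1.73, 1.12, 1.60, 1.68 and 1.70 in the same order, a chronic difference of −0.52. Of the helicase cofactors, EIF4B had 532, 653, 580.2, 567 and 549 CPM and was highest in the chronic library, with a difference of 0.17 (0.12 to 0.22). EIF4H differed by −0.50 (−0.55 to −0.44), and EIF4ENIF1, an eIF4E-binding protein of mRNA decay bodies, by −0.39.

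**Figure D4:**
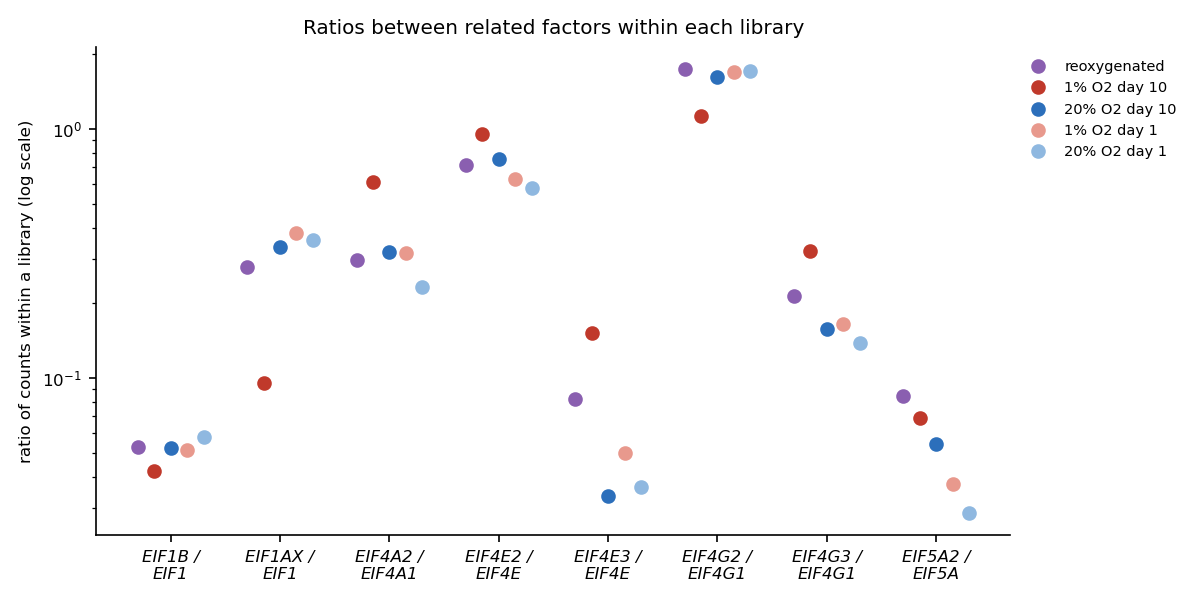
Ratio of the counts of 8 pairs of related initiation factor genes within each library (vertical axis, log scale), with 1 point per library. EIF4A2 over EIF4A1, EIF4E3 over EIF4E and EIF4G3 over EIF4G1 are highest at 1% O2 day 10 (0.608, 0.152 and 0.323), and EIF1AX over EIF1 is lowest there (0.0951).

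The eIF5 and eIF6 genes, grouped by name, had a chronic median of −0.90 over EIF5, EIF5A, EIF5A2, EIF5B and EIF6. This was below the medians of eIF2B (−0.60) and eIF3 (−0.47), the other groups with at least 5 genes. It was near that of the 3 eIF4G genes (−0.89). EIF5, the GTPase activator of eIF2, had 469 CPM in reoxygenated cells, 239 CPM at 1% O2 day 10, 576 CPM at 20% O2 day 10, 505 CPM at 1% O2 day 1 and 537 CPM at 20% O2 day 1. EIF5B, the GTPase of subunit joining, had 359, 191, 357, 328 and 299.6 CPM in the same order. Both were lowest in the chronic library, at log2 differences of −1.27 (−1.334 to −1.201) and −0.90 (−0.98 to −0.83). EIF5A, the hypusine-bearing factor that acts mainly in elongation, had 608, 441, 932, 893 and 976 CPM and a difference of −1.08 (−1.13 to −1.03). EIF5A shares 27.9% of sampled words with EIF5AL1, and the sum of both rows also differed by −1.08. EIF5A2, its relative, had 51.2, 30.5, 50.7, 33.3 and 28.0 CPM, so both day 1 libraries were close to the chronic one, and the chronic difference of −0.73 (−0.93 to −0.54) rests on the 20% O2 library of day 10. Against the 20% O2 library of day 1 it was 0.12. EIF5A2 counts per EIF5A count were 0.0841 in reoxygenated cells, 0.0691 at 1% O2 day 10, 0.0544 at 20% O2 day 10, 0.0373 at 1% O2 day 1 and 0.0287 at 20% O2 day 1, so that every later library was above both day 1 libraries. EIF6, which keeps the ribosomal subunits apart, had 282, 217, 348, 293 and 378 CPM and differed by −0.68 (−0.75 to −0.61).

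Differences were smaller in acute hypoxia. In 1% O2 day 1 minus 20% O2 day 1, the median of the 45 genes was −0.16, against 0.00 over all genes. Of the 45, 35 were below 0 (against 49.6% of all genes and 49% of genes with at least 100 CPM). At a size of at least 0.5, 0 genes were lower (against 4.69% of all genes) and 1, EIF3C, was higher (against 7.99%). Of genes with at least 100 CPM, 1% lay at or below −0.369 and 97% at or below 0.464. EIF3C was also the 1 gene at a size of at least 1 (against 2.12%), with a difference of 1.08 (0.95 to 1.21), and 0 were lower (against 0.839%). After EIF3CL, EIF2B3 (−0.43, −0.65 to −0.22), EIF6 (−0.37, −0.44 to −0.30) and EIF2D (−0.32, −0.50 to −0.15) had the lowest acute differences. After EIF3C, EIF5A2 (0.25), EIF4G3 (0.22) and EIF4E3 (0.19, −0.25 to 0.65) had the highest. The chronic minus the acute difference had a median of −0.34, against −0.02 over all genes and −0.28 over genes with at least 100 CPM. In it, 16 genes were lower by at least 0.5 (against 22.5% of all genes) and 1, EIF4E3, was higher (against 24.7%). Past a size of 1, EIF1AX (−1.59), EIF4G2 (−1.36), EIF5 (−1.18) and EIF5B (−1.03) were the 4 lower genes (against 6.18%), and EIF4E3 (1.04, 0.45 to 1.63) the 1 higher gene (against 12.5%).

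Over both days together, no initiation factor gene passed a test. edgeR's quasi-likelihood test of oxygen, with day as a term over 4 libraries, called 0 of the 45 genes higher (against 0.899% of 13011 genes) and 0 lower (against 0.0999%) at a Benjamini-Hochberg adjusted p of 0.05. DESeq2 also called 0 of them (against 0.361% of all genes higher and 0.0154% lower), as did limma-voom (against 1.55% and 0.169%). In a test of 3 libraries without 1% O2 day 1 and without the day term, 2 of the 45 genes were called higher (against 15.7% of 12886 genes) and 23 lower (against 17%). That fit has a single 1% O2 library, and its spread comes from the 2 libraries at 20% O2. With each of the other libraries left out instead, 0 were called, against 0.158% of all genes higher and 0.0158% lower without 1% O2 day 10 and 0% in each direction without either 20% O2 library. At an unadjusted p under 0.05 by edgeR, 7 of the 45 genes passed, against 1593 of all 13011 genes tested. They were EIF3C, which shares reads with EIF3CL, higher, and EIF2B3, EIF1AX, EIF2S1, EIF5, EIF4E and EIF2B1 lower. The lowest adjusted p by edgeR among genes without a near-identical copy was 0.266 for EIF2B3, with a log2 change of −0.78 (SE 0.30) and a lower level at 1% O2 on both days. EIF1AX, with an acute difference near 0, had a log2 change of −0.77 (SE 0.31) and an adjusted p of 0.294 by edgeR. Nothing in the labels tells whether the libraries are separate cultures, so these p-values measure only the spread between these libraries. The test left 1 residual degree of freedom. Its day term takes up a plain difference between the days, and the test reads a gap between the acute and the chronic oxygen difference as spread.

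Most of these mRNAs were above the 1% O2 library and below the 20% O2 library of day 10 in reoxygenated cells. Set against 1% O2 day 10, 36 of the 45 genes were above 0. Below 0 were 20% of the 45, against 48.4% of all genes and 35.6% of genes with at least 100 CPM. The median log2 difference of the 45 genes was 0.34, against 0.03 over all genes and 0.19 over genes with at least 100 CPM. At a size of at least 0.5, 13 genes were higher (against 21.8% of all genes) and 0 lower (against 23.1%). Of genes past 1, EIF2B3 (1.09, 0.80 to 1.39) and EIF1AX (1.06, 0.92 to 1.199) were the 2 higher genes (against 5.6%), and 0 were lower (against 11.2%). EIF4G2 (0.99), EIF5 (0.97) and EIF5B (0.91) came next. EIF1 (−0.48), EIF4A2 (−0.42) and EIF4B (−0.30) were below 0, a direction that is fixed by their being highest in the chronic library. This comparison shares the 1% O2 library of day 10 with the chronic difference, so they are not independent.

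Against 20% O2 day 10, 41 of the 45 genes were below 0 in reoxygenated cells. This was 91.1%, against 49.6% of all genes and 65.4% of genes with at least 100 CPM. The median of the 45 genes was −0.22, against 0.00 over all genes and −0.10 over genes with at least 100 CPM. This comparison shares the 20% O2 library with the chronic one. At a size of at least 0.5, EIF5A (−0.61, −0.66 to −0.57), EIF4G1 (−0.53, −0.57 to −0.48) and EIF1AX (−0.52, −0.62 to −0.42) were the 3 lower genes (6.67%, against 6% of all genes). EIF4A3 (−0.48, −0.59 to −0.36) followed. Of genes with at least 100 CPM, 3% lay at or below −0.494. EIF4E3 (0.99, 0.56 to 1.46) was the 1 higher gene (against 12.8%). None of the 45 reached a size of 1, with 0 higher (against 3.4%) and 0 lower (against 1.41%). EIF5B and EIF5A2 (both 0.01) and EIF2B3 (−0.07) were close to the 20% O2 library of day 10. The highest differences after EIF4E3 were those of EIF3C (0.09), EIF5A2 and EIF5B. In the plot of all 45 genes by complex, the points of this comparison lie mostly between 0 and −0.5.

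Time at 20% O2 alone gave smaller differences. In 20% O2 day 10 minus 20% O2 day 1, the median of the 45 genes was −0.08, against 0 over all genes. EIF5A2 (0.85, 0.65 to 1.06) was the 1 gene higher by at least 0.5 (against 10.2%), and 0 genes were lower (against 7.03%). For a size of 1, 0 were higher (against 3.06%) and 0 lower (against 1.31%). EIF4A1 had the lowest difference, −0.35 (−0.38 to −0.32).

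Around the initiation factors, the genes that control cap-dependent initiation through mTORC1 and the 4E-BPs lay on both sides of 0, with a chronic median of −0.22 over 17 measured genes, against 0.02 over all genes. DDIT4, which encodes the mTORC1 inhibitor REDD1, had 132 CPM in reoxygenated cells, 228 CPM at 1% O2 day 10, 46.4 CPM at 20% O2 day 10, 112 CPM at 1% O2 day 1 and 36.8 CPM at 20% O2 day 1. Both 1% O2 libraries and the reoxygenated library were above both 20% O2 libraries. DDIT4 rose under 1% O2 over both days by 1.97 on the log2 scale (SE 0.28), with an adjusted p of 0.000106 by edgeR's quasi-likelihood test, the 1 gene of these lists that passed. Without the day term, or with either 20% O2 library left out, its adjusted p was at least 0.772 by the same test. Of the 17 genes, 2 were higher by at least 1 in chronic hypoxia (against 14.4% of all genes), DDIT4 (2.29) and its relative DDIT4L (1.86, 1.32 to 2.61), which had 92 counts at 1% O2 day 10 and 28 at 20% O2 day 10, and 0 were lower (against 7.04%). EIF4EBP1 and EIF4EBP2, which encode the eIF4E-binding repressors, differed by −0.22 (−0.39 to −0.05) and −0.72 (−0.80 to −0.64). EIF4EBP3 had 0 counts. PDCD4, an inhibitor of eIF4A, differed by 0.74 (0.60 to 0.88). By at least 0.5, 4 of the 17 genes were higher (against 27.4% of all genes): DDIT4, DDIT4L, PDCD4 and MKNK2 (0.58). The 4 lower genes (against 23.2%) were RPS6KB2 (−0.96), EIF4EBP2, LARP1 (−0.70) and MTOR (−0.67).

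The kinases and phosphatases of the eIF2 α subunit and the genes of the ATF4 branch had a chronic median of −0.03 over 12 genes, and 0 of them passed a size of 1 (against 14.4% of all genes higher and 7.04% lower). ATF4, a transcription factor whose mRNA is translated more when eIF2 is phosphorylated, had 221 CPM in reoxygenated cells, 266 CPM at 1% O2 day 10, 149.6 CPM at 20% O2 day 10, 241 CPM at 1% O2 day 1 and 272 CPM at 20% O2 day 1. The 20% O2 library of day 10 was the low one, so the chronic difference of 0.83 (0.75 to 0.92) stands beside an acute one of −0.18 (−0.25 to −0.10). The kinase genes EIF2AK1, EIF2AK2, EIF2AK3 (PERK) and EIF2AK4 (GCN2) differed by 0.37, −0.08, 0.25 and −0.43. Of the phosphatase adaptors that reverse the modification, PPP1R15A differed by 0.08 and PPP1R15B by 0.69. By at least 0.5, ATF4 and PPP1R15B were the 2 higher genes of the 12 (against 27.4% of all genes). PPP1CC (−0.66), IMPACT (−0.64) and PPP1CA (−0.62) were the 3 lower genes (against 23.2%). DDIT3, a target of ATF4, was 1.34 (1.02 to 1.70) higher in reoxygenated cells than at 20% O2 day 10, at 24.6 against 9.62 CPM.

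Genes of other initiation routes, helicases and ribosome recycling had the lowest chronic median of the lists, −0.88 over 9 genes, and 4 were lower by at least 1 (against 7.04% of all genes). DHX9, a helicase, differed by −1.53 (−1.60 to −1.47), DHX29, a scanning helicase, by −1.38, ABCE1, which splits ribosomes for recycling, by −1.27, and DENR, a reinitiation factor, by −1.19. The genes of hypusine, the modification of eIF5A, and of polyamine synthesis, with AZIN1, OAZ1 and OAZ2, which regulate ornithine decarboxylase, had a median of −0.80 over 9 genes, and 3 were lower by at least 1 (against 7.04%). Spermidine synthase, SRM, had 81.0 CPM in reoxygenated cells, 33.3 CPM at 1% O2 day 10, 135 CPM at 20% O2 day 10, 91.2 CPM at 1% O2 day 1 and 109.7 CPM at 20% O2 day 1. It was lowest in the chronic library, with a difference of −2.01 (−2.19 to −1.85), and ornithine decarboxylase, ODC1, differed by −1.84 (−1.93 to −1.75). AMD1, which makes the aminopropyl donor of spermidine, differed by −1.03. DHPS, which begins the modification, differed by 0.25 and DOHH, which completes it, by −0.83 (−1.21 to −0.48).

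Poly(A)-binding proteins and their partners had a chronic median of 0.05 over 9 genes. PAIP2B, an inhibitor of the poly(A)-binding protein, was 1.47 (1.22 to 1.76) higher, and PABPC4 differed by −0.97. Of the partners of EIF4E2 in hypoxic cap binding, EPAS1, the gene of HIF-2α, was higher by 1.16 (1.07 to 1.25) in chronic hypoxia. Its acute difference was −0.07 (−0.25 to 0.10). At 20% O2 alone, EPAS1 differed by 1.29 (1.16 to 1.44), day 10 minus day 1. RBM4, whose counts were not whole, differed by −0.22 (−0.40 to −0.04) in chronic hypoxia. That list of 5 genes had a chronic median of 0.05. Elongation and termination factors had a median of −0.22 over 15 genes, with 1 higher by at least 1, EEF1A2 (1.06, against 14.4% of all genes), and 1 lower, EEF1E1 (−1.03, against 7.04%), whose counts were not whole. In acute hypoxia the medians of these lists lay between −0.16 and 0.15, and DDIT4 (1.60, 1.44 to 1.77) was the 1 gene past a size of 1 (against 2.12% of all genes higher).

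**Figure D5:**
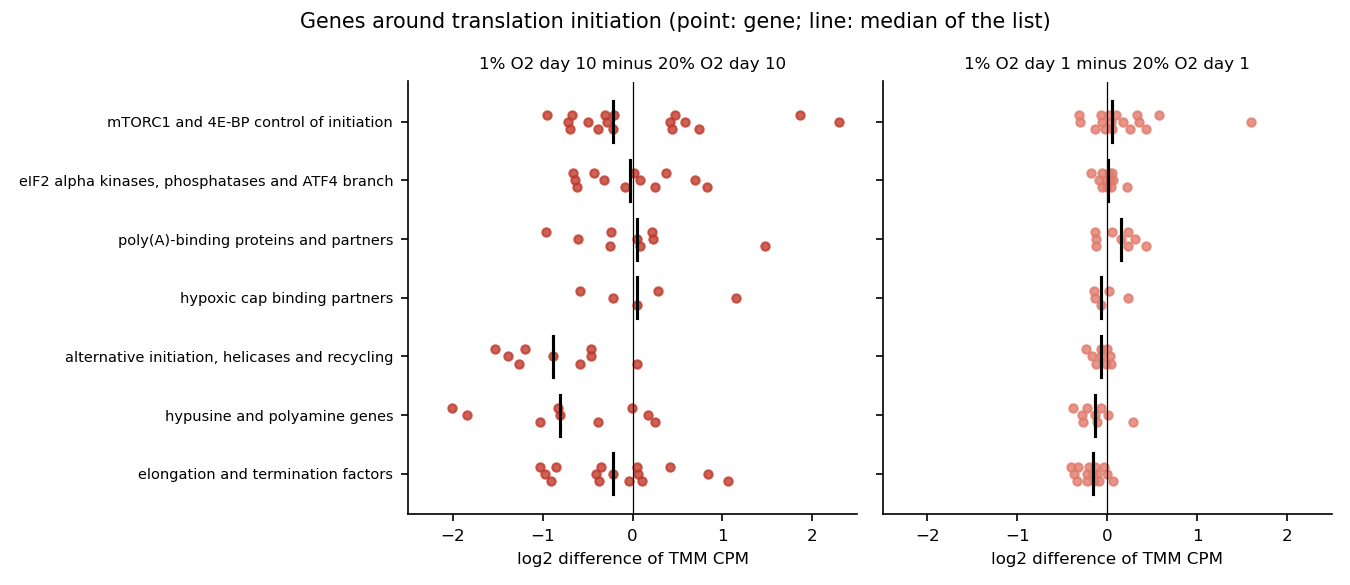
Log2 difference of TMM CPM (horizontal axis) of the genes of 7 lists around translation initiation, with 1 point per gene and a line at each list's median, in chronic and acute hypoxia. In chronic hypoxia the medians of other initiation routes and of the hypusine and polyamine genes lie at −0.88 and −0.80, and in acute hypoxia DDIT4 stands apart at 1.60.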

How the data were processed

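Gene-level RNA sequencing of 5 libraries was used, 1 per condition. Libraries came from an mRNA kit, per the labels' protocols. The submitters' processing notes name the hg38 build, RSEM 1.2.15, Bowtie2 2.1.0 and edgeR. Neither annotation nor strand setting is given in the sources used here. The authors deposited expected counts per gene symbol (estimated counts, not normalized), of which between 3.58% and 4.09% per library were not whole. Among the 45 genes, values that were not whole occurred in EIF3C, EIF3CL, EIF4A1 and EIF5A, and among the named genes of the lists in RBM4 and EEF1E1. The authors also deposited a normalized signal on a CPM scale. Of its values, 100% were whole reads within 0.01, and 99.95% of these equalled the rounded expected counts. A test on those reads called the same numbers of genes, 117 higher and 13 lower.

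Expected counts were rounded, and 13940 genes that reached 1 CPM in any library were kept. TMM factors from 0.965 to 1.07 (edgeR 4.0.16 in R 4.3.3) scaled the libraries, and log2 CPM used a prior count of 2. Between single libraries 1 count corresponds to between 0.0816 and 0.126 CPM. Exact Clopper-Pearson 95% intervals of count ratios, and normal intervals for chronic minus acute and for ratios of related genes, cover counting error only, and reads without molecular identifiers are not independent molecules. The oxygen test used edgeR's quasi-likelihood method on 13011 genes that reached 1 CPM in 2 of 4 libraries, with a day term, 1 residual and 29.8 prior degrees of freedom and Benjamini-Hochberg adjustment. DESeq2 1.42.0 and limma 3.58.1 (voom) were alternatives. The procedures were tested on simulated data.

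The 45 genes and the 7 lists around them were chosen with earlier results of these data known. Values are given library by library for 4 genes at each end of the acute, chronic and reoxygenated minus 20% O2 day 10 differences, for those past a size of 1, those called by the test, and pairs of related genes. Other subunits, up to 4 genes per list with fixed regulators, and some further genes of the lists are given by their differences. EIF3A and other genes beyond these are given to account for every gene. RefSeq (GRCh38.p14) gave coordinates for all 45 genes. Sharing of sequence was measured on sampled words of 50 bases from GENCODE transcripts, as the percentage that another gene also holds. In 28 rows the symbol read as a date, and none of these is named.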

Additional observations from a re-analysis of the deposited data

Results flagged for a closer look

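In 4 genes the acute and the chronic difference had opposite signs, each with a counting interval that excludes 0. The difference between them was not tested, because each condition had 1 library. EIF1 differed by 0.24 (0.19 to 0.28) in chronic and −0.09 (−0.14 to −0.03) in acute hypoxia, a chronic minus acute difference of 0.32. EIF3A differed by −0.81 (−0.86 to −0.76) in chronic and 0.07 (0.03 to 0.12) in acute hypoxia, a difference of −0.88. EIF5B differed by −0.90 (−0.98 to −0.83) in chronic and 0.13 (0.06 to 0.20) in acute hypoxia, a difference of −1.03. EIF5A2 differed by −0.73 (−0.93 to −0.54) in chronic and 0.25 (0.02 to 0.48) in acute hypoxia, a difference of −0.98. For EIF5A2 the sign of the chronic difference depends on which 20% O2 library is subtracted, and it was 0.12 against that of day 1.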

How the results depend on the processing

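The chronic counts depended on how the libraries were scaled. With differences centred on well expressed genes, 13 genes were lower (against 12.5% of all genes) and 3 higher (against 39.3%) by at least 0.5 in chronic hypoxia, 2 were lower by at least 1, and the median was −0.30. With library totals 2 were higher by at least 0.5 (against 32.1%) and the median was −0.46. With the 20% O2 library of day 1 in place of that of day 10, 2 were higher by at least 0.5 and 0 by at least 1, and EIF5A2 reversed to 0.12. With near-identical rows summed, 0 genes were higher in acute hypoxia by at least 0.5 or 1, and EIF3C reversed to −0.21. In reoxygenated minus 1% O2 day 10, 1 gene was lower by at least 0.5 with library totals (against 24.9% of all genes) and with DESeq2 size factors (against 24.1%). The count was the same without a filter and in the deposited normalized table. Centred on well expressed genes, 3 were lower by at least 0.5 (against 30.7%) and 0 higher by at least 1, with a median of 0.15. In reoxygenated minus 20% O2 day 10, 7 genes were lower by at least 0.5 without a filter and in the normalized table, and 1 with library totals (against 4.56%) or centring (against 3.91%). There, 1 was higher by at least 1 with library totals, a prior count of 0.5 or centring. In chronic minus acute, centring left 10 genes lower (against 11.1%) and 2 higher (against 36.7%) by at least 0.5, 2 lower by at least 1 and a median of −0.060. The median was −0.22 with library totals, and 0 genes were higher by at least 1 in the normalized table. The oxygen test with each library left out, without the day term, called between 0 and 2 of the 45 genes higher and between 0 and 23 lower (against 0% to 15.7% and 0% to 17% of all genes), with medians from −0.51 to −0.14. For the counts above without a share beside them, the share of all genes under that setting was not worked out. Those counts therefore do not set these genes apart from others. The causes of these shifts were not tested. Of the alternative values of single genes and gene groups, 781 stayed within counting error of the main value or, for DDIT4, kept their call. Another 138 moved further, and 3, all of DDIT4, lost their call. A reversal was counted only for main differences of at least 0.5 in size, and 2 were found (those of EIF5A2 and EIF3C above). Smaller differences could change sign without being counted so. In chronic hypoxia EIF3C differed by 0.41 alone and by −0.57 when summed with EIF3CL. The oxygen test compared 1% with 20% O2 within days through its day term, without which 0 of the 45 genes and 0 of all 13011 genes were called. A block on replicate number could not be fitted, since each condition had 1 library and the labels give no replicate numbers. Depth limits EIF4E3 most, whose counting interval in chronic hypoxia ran from 0.85 to 1.68.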
